A study of Mus musculus with 90 samples.

Results

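The genes described are 9 synaptic adhesion genes of the mouse brain: the neurexin genes Nrxn2 and Nrxn3, the neuroligin genes Nlgn1, Nlgn2 and Nlgn3, and the leucine-rich repeat transmembrane genes Lrrtm1, Lrrtm2, Lrrtm3 and Lrrtm4. They were taken by gene name and make up 9 of the 19962 genes in the deposited table, and each of the 9 has 1 value per area of interest (AOI), the outlined patch of tissue from which RNA probes were collected. Sections 5 µm thick of formalin-fixed, paraffin-embedded brain were profiled with the GeoMx Digital Spatial Profiler and the mouse Whole Transcriptome Atlas, in which light releases barcoded probes from chosen AOIs for sequencing. Brains came from 6 chronic social stress (CSS) mice, which had been exposed to that stress, and from 4 control (ctrl) mice. AOIs lay in 5 subregions, namely choroid plexus (CP), hippocampal fields CA3 and CA1, motor cortex (MC) and somatosensory cortex (SS), and each AOI carried a p16 high or p16 low label. p16 is a cell cycle inhibitor used as a marker of senescent cells, and the sources used here do not give how an AOI received its label. The labels name no strain, sex, age or length of stress exposure for either group, and no allele or agent beyond the stress exposure itself.

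Neurexins are presynaptic membrane proteins that reach across the synaptic cleft and bind partners on the receiving neuron. Neuroligins and LRRTMs are such partners: neuroligin-1 is known for excitatory synapses, neuroligin-2 for inhibitory synapses and neuroligin-3 for both kinds, and the LRRTMs for excitatory synapses, where they help to hold AMPA-type glutamate receptors in place. Inside the cell these proteins bind scaffold proteins such as PSD-95 and gephyrin, so that adhesion across the cleft is tied to receptor clustering.

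In the mouse genome (GRCm38.p6 coordinates of the RefSeq annotation, the mm10 assembly that the submitters' processing notes name) the genes lie apart from one another. Nrxn2 spans chr19:6418756-6533217 and Nrxn3 spans chr12:88722701-90334935. Nlgn1 spans chr3:25421808-26332866, Nlgn2 chr11:69823123-69837784 and Nlgn3 chrX:101299179-101321350. Lrrtm1 spans chr6:77229210-77259915 and Lrrtm4 chr6:80018858-80810162, and Lrrtm3 spans chr10:63928497-64090255. Of the genes whose levels differed between hippocampus and cortex, Nlgn1 and Lrrtm1 (higher in hippocampus) and Lrrtm3 (lower) were picked for display with their values known. The 250 bases before one annotated start of each follow, read 5′ to 3′ on the gene's own strand from RefSeq (GRCm38.p6). For Nlgn1 and Lrrtm1 the window shown lies inside the gene span given above, not before its outer end. Capitals mark an E-box (CANNTG), the site of basic helix-loop-helix factors, or TTCAGCACC, a stretch of RE1, the element bound by the neuronal repressor REST.

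Nlgn1 inner start, chr3:26153987-26154236, minus strand: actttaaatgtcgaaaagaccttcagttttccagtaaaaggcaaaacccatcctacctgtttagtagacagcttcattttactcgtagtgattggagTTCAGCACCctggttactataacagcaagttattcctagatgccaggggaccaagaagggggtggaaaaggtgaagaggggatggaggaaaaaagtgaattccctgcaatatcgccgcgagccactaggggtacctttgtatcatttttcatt
Lrrtm1, chr6:77242227-77242476, plus strand: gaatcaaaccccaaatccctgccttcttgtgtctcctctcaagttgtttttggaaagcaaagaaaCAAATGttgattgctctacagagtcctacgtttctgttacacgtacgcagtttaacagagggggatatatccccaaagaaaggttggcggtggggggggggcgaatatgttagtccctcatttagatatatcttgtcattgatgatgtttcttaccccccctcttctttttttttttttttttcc
Lrrtm3, chr10:64090256-64090505, minus strand: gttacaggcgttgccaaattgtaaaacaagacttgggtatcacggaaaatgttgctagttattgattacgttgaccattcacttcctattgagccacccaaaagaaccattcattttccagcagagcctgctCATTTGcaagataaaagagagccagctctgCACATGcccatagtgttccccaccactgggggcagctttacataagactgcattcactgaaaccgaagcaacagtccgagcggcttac

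Over both strands, TTCAGCACC was present in 99 of 32851 RefSeq promoter windows of the same length (0.301%) and CANNTG in 21753 of them (66.2%). The inner Nlgn1 window held TTCAGCACC and no E-box, the Lrrtm1 window held 1 E-box and the Lrrtm3 window held 2. The window before the other Nlgn1 start (chr3:26331910-26332159) held neither sequence. The cyclic AMP response element core TGACG, found in 17.8% of all windows, was in none of the 10 windows that 6 of the 9 members have in the table. These matches describe letters in a window and say nothing of binding.

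The 90 AOIs (46 p16 high, 44 p16 low) fell into 20 groups of 3 to 6, and the mouse was the replicate throughout. Total counts recovered from the table ran from 184469 to 2098984 per AOI. Values are the authors' scaled signal, which gives each AOI the same median over genes, and each gene has 1 probe value, so levels are compared between tissues and never between genes. The negative control probe, a measure of background, averaged 13.4 signal units in CP, 14.2 in CA3, 13.1 in CA1, 16.5 in MC and 15.9 in SS. Marker genes of each tissue were read against the labels. The summed signal of 7 choroid plexus epithelial markers had a median of 100401 over CP mice, against 366 in CA3, 175 in CA1, 189 in MC and 186 in SS. All 5 CA3 pyramidal markers were called higher and all 5 CA1 pyramidal markers lower in CA3 than in CA1. Of all 19962 genes, 1007 were called higher and 2528 lower in that comparison. In CP, 5 of 6 excitatory and 8 of 8 inhibitory neuron markers averaged under 2 times the negative probe. The CA3 tissue of CSS mouse 1163 stood apart in its summed CA1 pyramidal signal (284, against 128 to 170 in the other mice). The summed CA3 pyramidal signal was lowest in control mouse 1175 at 507 and in CSS mouse 1163 at 512.4, and ran from 594 to 963 in the other mice.

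**Figure D1:**
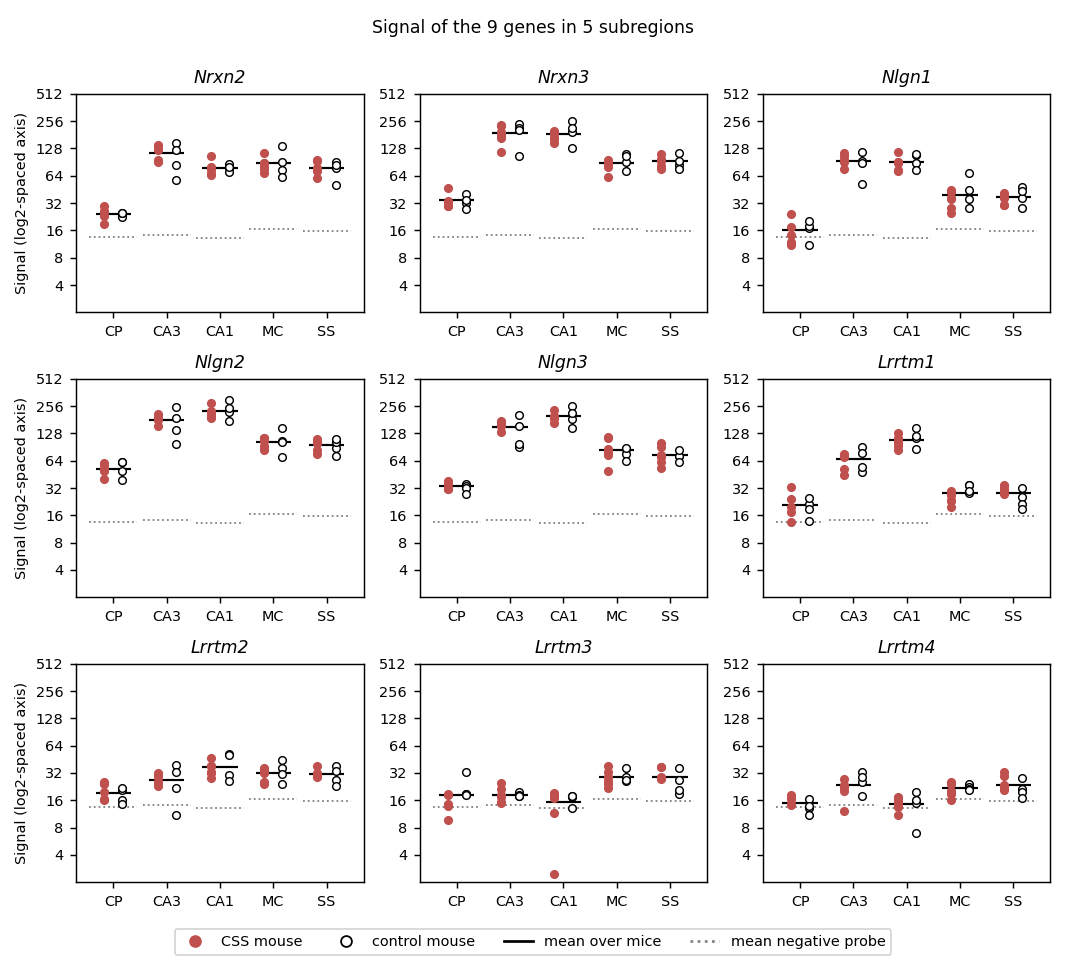
Signal of the 9 genes by subregion, 1 point per mouse (mean of its AOIs), CSS mice left of control mice, on a log2-spaced axis. Solid bars are means over mice and dotted lines the mean negative probe; the neurexins, the neuroligins and Lrrtm1 sit lowest in CP and, apart from Nrxn2, highest in the 2 hippocampal fields, while Lrrtm3 and Lrrtm4 average at most 1.85 times the negative probe.

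The first comparison asked how far the synaptic genes are present in CP, an epithelium outside the neural tissue that holds few or no synapses. All 9 members were lower in CP than in the mean of the other 4 subregions, at between 0.266 (Nrxn3) and 0.768 (Lrrtm4) times the level there, and 40.2% of all genes were called in either direction. The deficit was deepest for Nrxn3, Nlgn1, Nrxn2 and Nlgn3 and shallowest for Lrrtm3 and Lrrtm4. Lrrtm3 and Lrrtm4 averaged at most 1.85 times the negative probe in any subregion, which leaves little room for a fall. Nlgn1 averaged 1.21 times the negative probe in CP. The order of these depths is therefore not read as a difference between the genes. The median over the 9 was -1.4 on the log2 scale, beside -0.03 over all genes. As these are bulk patches of tissue, fewer neurons in an AOI and less RNA per neuron cannot be told apart.

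Nrxn2 had a lowest, median and highest mouse of 18.9, 24.8 and 29.4 signal units in CP (n = 9), while its means elsewhere lay between 77.9 and 113. Nrxn3 had 27.6, 33.1 and 46.6 in CP, against means of 88.0 to 188 elsewhere. For both neurexins the highest CP mouse was below the lowest mouse of every other subregion. How many of all genes separate in this way was not counted, so the gap is given as description only. Nrxn3 fell by 1.91 on the log2 scale in CP (SE 0.10, limma adjusted p = 6.5e-12) and Nrxn2 by 1.78 (SE 0.10, limma adjusted p = 7.28e-12), in 9 of 9 mice each.

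Among the neuroligins, Nlgn1 was close to background in CP. Its lowest, median and highest CP mice had 11, 17 and 24.5 signal units, a mean of 1.21 times the negative probe, and it exceeded the negative probe in 10 of 16 CP AOIs. Nlgn2 had 39.6, 51.8 and 62.0 and Nlgn3 had 27.6, 33.6 and 38.6, and both exceeded the negative probe in 16 of 16 CP AOIs. Nlgn1 fell by 1.84 (SE 0.14), Nlgn3 by 1.76 (SE 0.08) and Nlgn2 by 1.4 (SE 0.06) on the log2 scale, each in 9 of 9 mice, with limma adjusted p from 2.12e-13 to 8.73e-10. The highest CP mouse was again below the lowest mouse of every other subregion for Nlgn1, Nlgn2 and Nlgn3. For Nlgn1 this gap was narrow, with the highest CP mouse at 24.5 and the lowest MC mouse at 25.1. The share of all genes with such a gap was not counted here either.

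The LRRTM genes, which code for postsynaptic partners of neurexins, were also lower in CP. Lrrtm1 averaged 20.7 ± 6.11 signal units in CP (SD, n = 9) and fell by 1.25 (SE 0.12, limma adjusted p = 4.95e-08, 9 of 9 mice). Lrrtm2 averaged 19.4 ± 3.78 in CP and fell by 0.68 (SE 0.10, limma adjusted p = 7.87e-06, 9 of 9 mice). Lrrtm3 fell by 0.41 (SE 0.14, limma adjusted p = 0.0246, 8 of 9 mice) and Lrrtm4 by 0.38 (SE 0.11, limma adjusted p = 0.00909, 9 of 9 mice). The last 2 calls did not hold when AOIs were scaled to the negative probe (limma adjusted p = 0.148 for Lrrtm3 and 0.112 for Lrrtm4), and that of Lrrtm3 did not hold without mouse 1152, 1157, 1163 or 1170 (0.0548 to 0.071). Against single subregions, 8 of 9 members were lower in CP than in CA3 (37.2% of all genes called), 7 of 9 than in CA1 (41.9%), 9 of 9 than in MC (39.4%) and 9 of 9 than in SS (38.2%). Lrrtm3 missed the call against CA3 and CA1, at log2 differences of -0.12 and 0.02, and Lrrtm4 against CA1, at 0.11. The Lrrtm2 call against CA3 was marginal (limma adjusted p = 0.049) and did not hold without mouse 1152, 1157, 1162, 1163, 1170, 1151, 1168 or 1175 (up to 0.135), nor did that of Lrrtm1 against MC without mouse 1162 (0.0549). Under negative probe scaling the Lrrtm1 and Lrrtm4 calls against MC and SS did not hold (limma adjusted p from 0.0613 to 0.32).

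**Figure D2:**
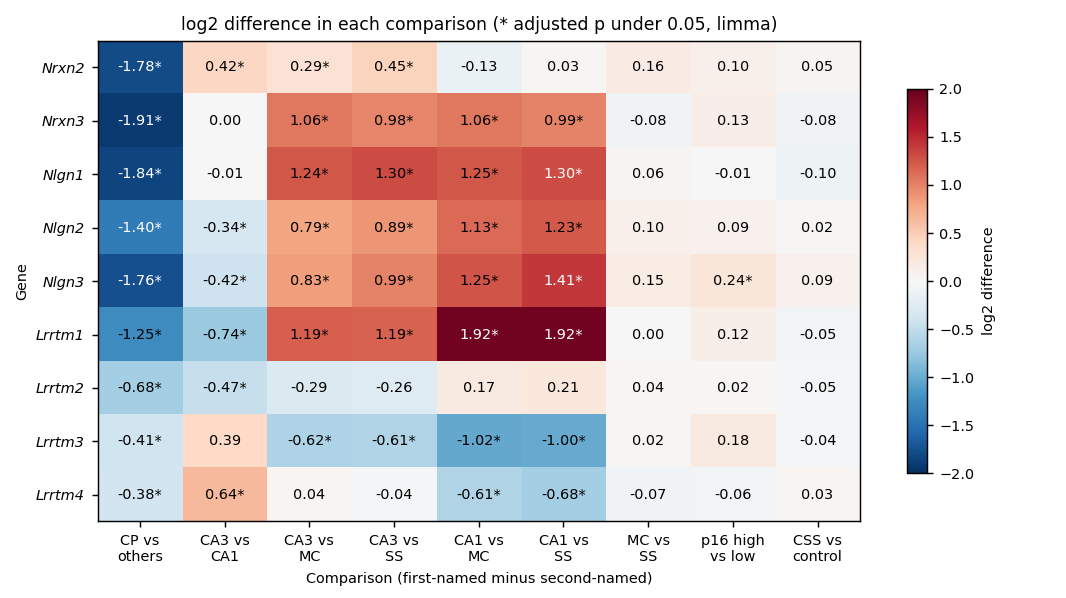
The log2 difference of each gene (rows) in 9 comparisons (columns), first-named minus second-named, with p16 and CSS given for hippocampus and cortex together. An asterisk marks a call at an adjusted p under 0.05: every member is called lower in CP, 6 differ between CA3 and CA1, 0 between MC and SS, 1 between p16 high and low AOIs and 0 between CSS and control mice.

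Within the hippocampus, CA3 and CA1 differed gene by gene. Nrxn2 and Lrrtm4 were higher in CA3 than in CA1, Nlgn2, Nlgn3, Lrrtm1 and Lrrtm2 were lower, and Nrxn3, Nlgn1 and Lrrtm3 did not pass the test. Thus 6 of 9 members were called, with 17.7% of all genes called in the same comparison. The median over the 9 was -0.01 on the log2 scale, close to the 0.00 of all genes.

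Of the 2 neurexin genes, Nrxn2 passed the test and Nrxn3 did not. Nrxn2 had a lowest, median and highest mouse of 57.5, 123 and 148 signal units in CA3, against 66.0, 78.7 and 105 in CA1 (n = 10). The ranges overlap, and Nrxn2 was higher in CA3 in 8 of 10 mice, with a log2 difference of 0.42 (SE 0.10, limma adjusted p = 0.00336). Nrxn3 had 106, 199 and 239 in CA3, against 131, 189 and 259.8 in CA1, a log2 difference of 0.00 with a 95% interval of -0.17 to 0.16.

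Of the neuroligins, the inhibitory-synapse member Nlgn2 had 96.6, 188 and 250.2 in CA3, against 176, 214 and 297 in CA1. Nlgn3 had 89.9, 158 and 204 in CA3, against 145, 191 and 255 in CA1. Both were lower in CA3 in 10 of 10 mice. Nlgn2 fell by 0.34 in CA3 (SE 0.08, limma adjusted p = 0.00259) and Nlgn3 by 0.42 (SE 0.09, limma adjusted p = 0.000385), and the Nlgn2 call did not hold under scaling to the 75th percentile (limma adjusted p = 0.0592). Nlgn1, known for excitatory synapses, averaged 92.4 ± 19.0 in CA3 and 91.4 ± 15.8 in CA1 (SD, n = 10 each), with a 95% interval of -0.19 to 0.18 for its log2 difference.

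Lrrtm1 showed the widest gap between the fields. It had 44.8, 72.2 and 90.1 in CA3, against 83.4, 110.0 and 146 in CA1, and it was lower in CA3 in 10 of 10 mice. Lrrtm1 fell by 0.74 in CA3 (SE 0.10, limma adjusted p = 4.9e-07), which places it in the lowest 2.26% of all genes in this comparison. Lrrtm2 and Lrrtm4 went opposite ways from low levels. Lrrtm2, which spans chr18:35209003-35215024 in the same assembly, averaged 27.0 ± 7.65 in CA3 and 37.5 ± 9.42 in CA1, a fall of 0.47 (SE 0.15, limma adjusted p = 0.0309, 8 of 10 mice). Lrrtm4 averaged 23.4 ± 5.87 in CA3 and 14.7 ± 3.59 in CA1, a log2 difference of 0.64 (SE 0.18, limma adjusted p = 0.0106, 8 of 10 mice). In CA1 Lrrtm4 lay at 1.12 times the negative probe and exceeded it in 12 of 18 AOIs. The Lrrtm2 call did not hold without mouse 1152, 1170, 1151 or 1182 (limma adjusted p between 0.056 and 0.109) or under quantile or 75th percentile scaling, and the Lrrtm4 call did not hold without mouse 1151 (limma adjusted p = 0.055).

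Mouse 1175, whose CA3 tissue had the lowest CA3 pyramidal marker sum, was also the lowest of 10 mice in CA3 for Nrxn2, Nrxn3, Nlgn1, Nlgn2 and Nlgn3. Its low values were not confined to CA3. Mouse 1175 was lowest in CA1 for Nrxn3, Nlgn2, Nlgn3 and Lrrtm2, and in MC for Nrxn2, Nlgn2 and Lrrtm2. In SS it was lowest for Nrxn2, Nrxn3, Nlgn1, Nlgn2 and Lrrtm2. Other mice were lowest for the remaining members in CA1, MC and SS. Its Nlgn3 signal in CA3 was 89.9, with 97.1 to 204 in the other mice, and its Nlgn1 signal 51.6, with 75.1 to 118. Without mouse 1175 the CA3 to CA1 calls for Nrxn2, Nlgn2, Nlgn3, Lrrtm1, Lrrtm2 and Lrrtm4 all held, and they held too without mouse 1163.

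Both hippocampal fields were set against both cortical areas next. Nrxn3, Nlgn1, Nlgn2, Nlgn3 and Lrrtm1 were higher in CA3 and in CA1 than in MC and SS, and Lrrtm3 was lower. Nrxn2 was higher in CA3 than in either cortex, Lrrtm4 was lower in CA1 than in either cortex, and Lrrtm2 passed in none of the 4 comparisons. That made 7 of 9 members called against MC and 7 of 9 against SS from CA1, with 47.6% and 43.1% of all genes called, and 7 of 9 against MC and 7 of 9 against SS from CA3, with 31.7% and 30.6% called. The median over the 9 was 1.06 for CA1 against MC and 0.79 for CA3 against MC on the log2 scale, beside -0.05 and -0.01 over all genes.

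Lrrtm1 gave the largest of these differences among the 9 genes. It had a lowest, median and highest mouse of 83.4, 110.0 and 146 signal units in CA1, against 19.6, 28.4 and 34.8 in MC and 19.0, 29.5 and 34.9 in SS, with no overlap. The log2 difference was 1.92 (SE 0.09, limma adjusted p = 1.47e-16), or 3.79-fold, against MC and 1.92 (SE 0.11, limma adjusted p = 2.66e-16) against SS. CA3 exceeded each cortex by 1.19 (SE 0.10 for MC and 0.12 for SS, 10 of 10 mice). Lrrtm1 averaged 1.71 times the negative probe in MC and 1.79 times in SS, against 8.48 times in CA1. Its cortical levels thus lie near background, which limits how exactly the fold can be read.

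Nlgn1 had 72.5, 89.2 and 115 in CA1, against 25.1, 35.9 and 69.5 in MC and 27.9, 37.6 and 47.5 in SS. Its CA1 mice were all above its cortical mice, though the lowest CA1 mouse (72.5) was close to the highest MC mouse (69.5). For Lrrtm1 and Nlgn1 alike, the share of all genes without overlap between CA1 and cortex was not counted. The log2 differences were 1.25 (SE 0.09) for CA1 against MC, 1.3 (SE 0.09) for CA1 against SS, 1.24 (SE 0.11) for CA3 against MC and 1.3 (SE 0.10) for CA3 against SS, with limma adjusted p of 2.17e-10 or less. Nlgn1 sat at 2.41 times the negative probe in MC and 7.10 times in CA1.

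Nlgn3 averaged 150.0 ± 35.2 in CA3 and 197 ± 31.4 in CA1, against 82.9 ± 20.2 in MC and 74.0 ± 14.3 in SS (SD, n = 10 each). Nlgn2 averaged 179 ± 41.0 in CA3 and 224 ± 38.4 in CA1, against 102 ± 20.4 in MC and 94.9 ± 13.9 in SS. Nlgn2 and Nlgn3 thus shared one order, CA1 above CA3, CA3 above both cortices and the cortices above CP, with MC and SS as the only neighbours that did not differ. As deposited, Lrrtm1 had this order too. From CA1 the log2 difference to MC was 1.13 (SE 0.08) for Nlgn2 and 1.25 (SE 0.09) for Nlgn3, and to SS it was 1.23 (SE 0.07) and 1.41 (SE 0.08), in 10 of 10 mice each and with limma adjusted p of 1.63e-12 or less.

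Nrxn3 averaged 188 ± 46.3 in CA3 and 185 ± 37.1 in CA1, against 88.0 ± 14.9 in MC and 92.0 ± 12.9 in SS. Its log2 difference was 1.06 for either field against MC (SE 0.10 from CA3 and 0.08 from CA1, 10 of 10 mice, limma adjusted p of 1.87e-09 and 2.13e-12). As deposited, the CA1 level of Nrxn2 lay between those of the 2 cortices. Nrxn2 averaged 78.9 ± 11.1 in CA1, against 87.9 ± 22.2 in MC and 77.9 ± 14.5 in SS, with log2 differences of -0.13 (95% interval -0.32 to 0.05) and 0.03 (-0.15 to 0.20). CA3 exceeded MC by 0.29 (SE 0.10, limma adjusted p = 0.0293, 7 of 10 mice; 0.0508 to 0.0957 without mouse 1152, 1162, 1163 or 1168) and SS by 0.45 (SE 0.09, limma adjusted p = 0.000195, 10 of 10 mice).

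The direction for Nrxn2 turned with the scaling of the AOIs. Under quantile normalization its log2 difference was -0.38 for CA3 against MC, -0.22 for CA3 against SS and -0.74 for CA1 against SS. Nrxn2 was called lower in CA1 than in MC under quantile normalization (-0.90), 75th percentile scaling (-0.56) and edgeR (-0.31). Under negative probe scaling Nrxn2 was called higher in CA1 than in SS (0.30, limma adjusted p = 0.00449). Its call for CA3 against MC was lost under 75th percentile scaling (0.01, limma adjusted p = 0.904) and with edgeR (0.21, edgeR adjusted p = 0.0517), and also with mouse as a random block (limma adjusted p = 0.0733) or matched p16 labels (0.0585). For CA3 against SS it was lost under 75th percentile scaling (0.16, limma adjusted p = 0.0734). Nlgn1, Nlgn3, Lrrtm1 and Lrrtm3 kept both direction and call in all 5 scalings for CA1 against MC and CA1 against SS, as did Nlgn2. For CA1 under quantile normalization, the Nrxn3 difference shrank to 0.16 against MC and 0.05 against SS and missed the call (limma adjusted p = 0.0711 and 0.638). For CA3 under quantile normalization, the Nlgn2 difference shrank to 0.05 against MC (limma adjusted p = 0.72) and 0.12 against SS (0.237). That of Nlgn3 shrank to 0.13 against MC (limma adjusted p = 0.265). Lrrtm2 was called lower in CA3 than in MC and SS under quantile normalization, 75th percentile scaling and edgeR. Under negative probe scaling it was called higher in CA1 than in MC (0.49, limma adjusted p = 0.00023) and SS (0.48, 0.000216).

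Lrrtm3 was lower in both hippocampal fields than in both cortices. Its lowest, median and highest mice were 2.45, 17.4 and 19.3 in CA1 and 15.0, 18.1 and 24.5 in CA3, against 21.7, 27.9 and 38.6 in MC and 18.8, 28.0 and 37.6 in SS. It was lower in CA1 by 1.02 against MC (SE 0.17, limma adjusted p = 1.24e-05) and by 1.0 against SS (SE 0.19, limma adjusted p = 3.08e-05), in 10 of 10 mice. In CA3 Lrrtm3 fell by 0.62 against MC (SE 0.13) and by 0.61 against SS (SE 0.13). The value of 2.45 came from CSS mouse 1169, whose 1 CA1 AOI held 1 count of Lrrtm3, and without that mouse the CA1 differences were -0.80 against MC and -0.77 against SS (limma adjusted p = 1.68e-06 and 4.28e-05). In CA1 Lrrtm3 averaged 1.17 times the negative probe, and the negative probe itself averaged 13.1 in CA1 and 16.5 in MC.

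Lrrtm4 averaged 14.7 ± 3.59 in CA1, against 21.9 ± 2.93 in MC and 23.7 ± 5.02 in SS. It fell by 0.61 in CA1 against MC (SE 0.15, limma adjusted p = 0.00187) and by 0.68 against SS (SE 0.16, limma adjusted p = 0.000699), in 9 of 10 mice. Scaling to the negative probe ended the call against MC (limma adjusted p = 0.137). Lrrtm2 averaged 37.5 ± 9.42 in CA1, 32.3 ± 6.42 in MC and 31.2 ± 4.74 in SS, and its log2 differences were 0.17 and 0.21 from CA1 and -0.29 and -0.26 from CA3.

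Between MC and SS no member passed the test, and 0% of all genes were called by limma (1100 genes had an unadjusted p under 0.05, and edgeR called 14). Log2 differences of the 9 ran from -0.08 for Nrxn3 to 0.16 for Nrxn2. The 95% interval was -0.24 to 0.24 for Lrrtm1 and -0.18 to 0.29 for Nlgn1.

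**Figure D3:**
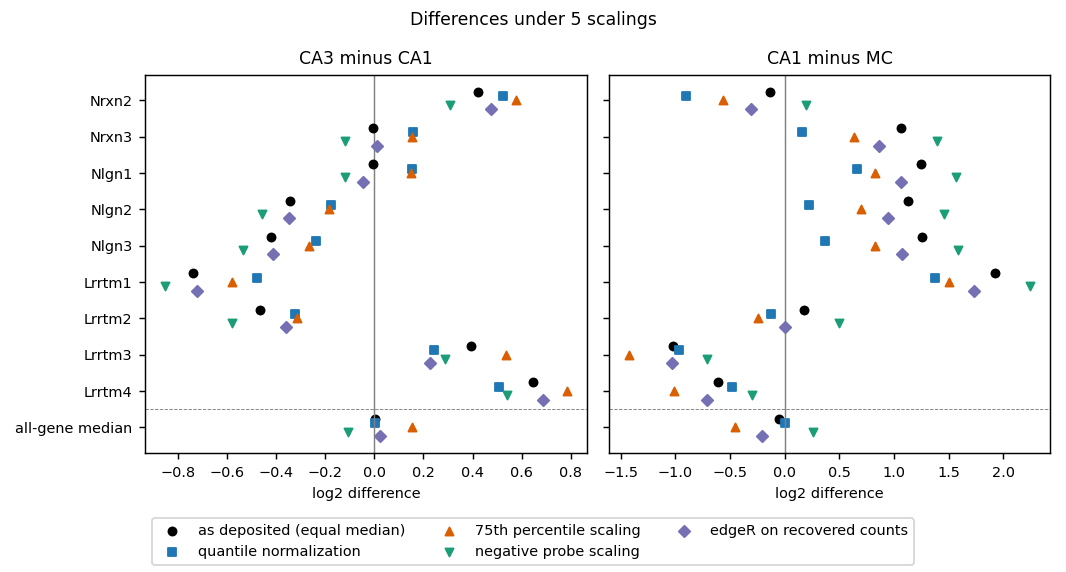
The log2 difference of each gene and of the median of all genes under 5 scalings, for CA3 minus CA1 (left) and CA1 minus MC (right). Between CA3 and CA1 only the points of Nrxn3 and Nlgn1 fall on both sides of 0. There Nrxn2, Nlgn3, Lrrtm1 and Lrrtm4 were called in all 5 scalings. Between CA1 and MC the Nrxn2 points run from -0.90 to 0.19 and those of Lrrtm1 from 1.37 to 2.25.

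Excitatory neuron markers moved with this split. Their summed signal over 6 genes had a median of 6113 in CA3 and 7647 in CA1, against 3078 in MC and 3031 in SS, and 6 of 6 were called higher in CA1 than in MC. General neuron markers, 5 genes, had medians of 4861 in CA3 and 2441 in CA1, against 2505 in MC and 2316 in SS, and 4 of 5 were called higher in CA1 than in MC. Oligodendrocyte markers moved the other way, with 6 of 6 lower in CA1 than in MC. Over all genes, 32.6% were called higher and 14.9% lower in CA1 than in MC. Of 7 astrocyte markers, 5 were called lower and 1 higher in CA1 than in MC, with a median summed signal of 821 in CA3 and 510 in CA1, against 751 in MC and 736 in SS. The summed signal of the 8 inhibitory markers had medians of 464 in CA3, 539 in CA1, 789 in MC and 615 in SS. Sst had the widest gap in that list, with a mean of 123 in CA1 and 266 in MC. By mean signal Gad2, Slc32a1, Npy and Lamp5 were also lower in CA1 than in MC, while Gad1, Pvalb and Vip were higher. The part of these markers in the members' differences was not tested.

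Across the 40 mouse-by-subregion means of CA3, CA1, MC and SS, the log2 signals of Nrxn3, Nlgn1, Nlgn2, Nlgn3 and Lrrtm1 were correlated with one another at Pearson's r between 0.84 and 0.96. Lrrtm3 was correlated with those 5 genes at -0.52 to -0.62, and Nrxn2 at 0.11 to 0.45. The 40 points share mice, AOI depth and the scaling, and they describe this set of tissues only. Among 8473 genes that reached 2 times the negative probe in at least 1 subregion, the gene most like Nlgn2 was Grin1 (r = 0.98), which codes for the obligatory subunit of the NMDA receptor, followed by Arf5 and Mical2. Nlgn3 was most like Nmt1, Chrm1 (a muscarinic acetylcholine receptor) and Gnb2 (r = 0.97 each), Nlgn1 most like Abr, Arpc4 and Selenow (0.96 to 0.97), and Nrxn3 most like Snn, Zmat2 and Matk (0.96 to 0.97). Lrrtm1 was most like Rasd1 (0.97), St8sia3 and Tcf4. Lrrtm3 was most like Spsb1 (0.88), the myelin gene Mog (0.78) and Cryab (0.76), a small heat shock protein gene abundant in oligodendrocytes. Nrxn2 was most like Cd81 (0.83), Cplx1 and Arhgdig, Lrrtm2 like Zdhhc18 (0.74), Rab36 and Kcnj9, and Lrrtm4 like Camk1 (0.73), Ephb1 and Kcna6.

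Genes that bind, bridge or anchor the 9 proteins were read from 6 lists. Most of them were called lower in CP, as were 19.6% of all genes: 6 of 7 modulators of neurexins and neuroligins, 7 of 10 latrophilin, FLRT and teneurin genes, 11 of 14 LAR-type phosphatases and their ligands, 3 of 3 measured SynCAM genes, 12 of 16 intracellular partners and 4 of 11 secreted linkers. Shank1, a postsynaptic scaffold gene, fell by 3.43 on the log2 scale in CP and Dlg4, which codes for PSD-95, by 2.07. In the opposite direction, Ptprf, a LAR-type phosphatase gene, had a log2 difference of 1.89 and Tenm4, a teneurin gene, 1.10.

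In CA1 against MC, 5 of 7 modulators, 7 of 10 latrophilin, FLRT and teneurin genes, 9 of 14 LAR-type genes and 11 of 16 intracellular partners were called higher, but 1 of 11 secreted linkers, beside 32.6% of all genes. Mdga1, which codes for a membrane protein that blocks neuroligins from binding neurexins, averaged 152 signal units in CA1 and 20.7 in MC, a log2 difference of 2.79. Igsf21, a neurexin-2 ligand gene, averaged 18.8 in CA1 and 61.4 in MC, at -1.63. Of the secreted linkers 5 of 11 were called lower in CA1, beside 14.9% of all genes, among them the neurexin ligand gene Nxph3 (23.1 in CA1, 77.7 in MC) and the cerebellin gene Cbln2 (20.7 in CA1, 39.0 in MC), while C1ql3 was higher by 0.79.

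Between CA3 and CA1, 8 of 10 latrophilin, FLRT and teneurin genes, 7 of 16 intracellular partners and 6 of 14 LAR-type genes were called lower in CA3, beside 12.7% of all genes. The latrophilin gene Adgrl2 averaged 16.7 in CA3 and 89.3 in CA1, at -2.31, and C1ql3, a secreted linker gene, 22.5 in CA3 and 117 in CA1, at -2.38. Clstn2, a calsyntenin gene, went the other way, with 271 in CA3 and 129 in CA1, at 1.05. Mdga1, like Nlgn2 and Nlgn3, was lower in CA3, at -0.43.

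The p16 label was compared within mice, over the hippocampal and cortical subregions in which a mouse had both labels. Nlgn3 was higher in p16 high AOIs, and the other 8 members did not pass the test. In all, 0.386% of genes were called, 77 genes, all of them higher in p16 high AOIs. Log2 differences of the other 8 ran from -0.06 for Lrrtm4 to 0.18 for Lrrtm3, with a median over the 9 of 0.10, beside 0.03 over all genes.

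Nlgn3 had a lowest, median and highest mouse of 95.7, 137 and 181 signal units in p16 high AOIs, against 83.9, 116 and 135 in p16 low AOIs (n = 10). The 2 ranges overlap, while on the log2 scale each of the 10 mice had a mean difference above 0 (9 of 10 by mean linear signal), from 0.04 in CSS mouse 1152 to 0.40 in CSS mouse 1169. The mean difference was 0.24 (SE 0.05, 95% interval 0.14 to 0.35, limma adjusted p = 0.036), or 1.18-fold. By subregion the Nlgn3 log2 difference was -0.22 in CP, 0.40 in CA3, 0.22 in CA1, 0.07 in MC and 0.25 in SS, and none of these was called. The share of all genes called was 0% in CP, 0% in CA3, 0.0902% in CA1, 0% in MC and 0% in SS by limma. Genes with an unadjusted p under 0.05 numbered 1046 in CP, 2654 in CA3, 996 in MC and 898 in SS, and edgeR called 6, 55, 0 and 1 genes there. In CA3 Nlgn3 averaged 179 ± 48.3 in p16 high AOIs and 133 ± 24.8 in p16 low AOIs (SD, n = 8), with 7 of 8 mice higher and a limma adjusted p of 0.184.

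The Nlgn3 call depended on the fit. The difference itself was smaller after quantile normalization, at 0.12 (limma adjusted p = 0.73), and after 75th percentile scaling, at 0.16 (limma adjusted p = 0.252). It was 0.29 after scaling to the negative probe (limma adjusted p = 0.0043) and 0.20 with edgeR (edgeR adjusted p = 0.0281). Leaving out CSS mouse 1157, 1162, 1169 or 1170, or control mouse 1151 or 1175, ended the call (limma adjusted p up to 0.132), while the difference stayed between 0.22 and 0.26 whichever mouse was left out.

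Neuronal markers and signal quality were read beside the label. The summed excitatory marker signal had a lowest, median and highest mouse of 3441, 5144 and 7618 in p16 high AOIs, against 2901, 4751 and 5878 in p16 low AOIs, with 6 of 6 genes above 0 and 1 called. All 5 general neuron markers were above 0 and 0 of 8 inhibitory markers were, with no gene of either list called. Of all genes, 57.7% were above 0 and 0.386% were called. The ratio of the median gene to the negative probe was higher by 0.05 on the log2 scale in p16 high AOIs, in 9 of 10 mice (exact sign-flip permutation test, two-sided, p = 0.0117). With that ratio as a covariate the Nlgn3 difference was 0.24 and the limma adjusted p 0.128. Total counts were lower by 0.16 on the log2 scale in p16 high AOIs. They were higher there in 3 of 10 mice (exact sign-flip permutation test, two-sided, p = 0.0508).

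**Figure D4:**
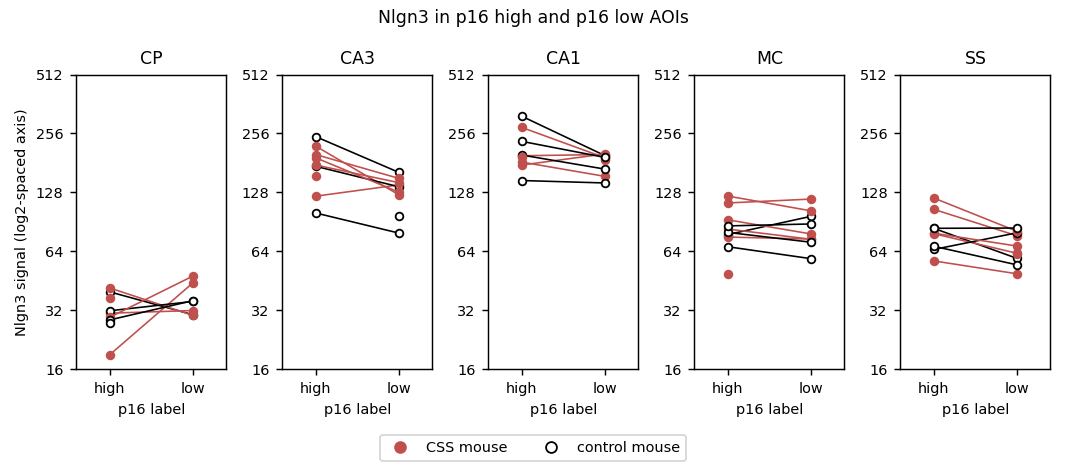
Nlgn3 signal in each p16 high and p16 low AOI by subregion, on a log2-spaced axis; lines join the 2 AOIs of a mouse, filled points are CSS mice and open points control mice. Lines run higher at p16 high in 7 of 8 mice in CA3, 6 of 8 in CA1, 6 of 9 in MC and 7 of 9 in SS, and in 2 of 7 in CP.

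Of the 6 partner lists, 1 gene passed in the p16 comparison: Dlg3, which codes for the scaffold protein SAP102, at 0.25 (SE 0.05, limma adjusted p = 0.0367). The Dlg3 call did not hold under quantile normalization, with a difference of 0.12 (limma adjusted p = 0.791), or under 75th percentile scaling, with 0.17 (0.255). Leaving out mouse 1157, 1162, 1163, 1169, 1170, 1151 or 1175 ended it at differences of 0.22 to 0.27 (limma adjusted p up to 0.132), as did dropping the mouse block (0.886) or taking mouse as a random block (0.241). It belongs to the intracellular partners, of which 15 of 16 had a difference above 0, as did 57.7% of all genes. Nlgn1 showed the widest spread between subregions among the members. It was higher in p16 high AOIs in 8 of 8 mice in CA3, with 104 ± 28.1 signal units, against 80.5 ± 17.6 in p16 low AOIs (log2 difference 0.35, limma adjusted p = 0.198), and higher in 3 of 9 mice in SS, with 32.2 ± 9.51 under the p16 high label and 41.8 ± 9.71 under the p16 low label (-0.39, limma adjusted p = 0.945). Neither value passed, and the difference between the subregions was not tested.

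Stress exposure was compared between mice, 6 CSS and 4 control. None of the 9 members passed in hippocampus and cortex together or in any of the 5 subregions, and 0% of all genes were called by limma in each of these 6 comparisons. The genes with an unadjusted p under 0.05 numbered 146 in hippocampus and cortex, 856 in CP, 587 in CA3, 384 in CA1, 272 in MC and 368 in SS, where edgeR called 0, 2, 9, 4, 0 and 2 genes. In hippocampus and cortex the members' log2 differences ran from -0.10 for Nlgn1 to 0.09 for Nlgn3.

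Nlgn3 had a lowest, median and highest mouse of 115, 123 and 154 signal units in CSS mice, and the 4 control mice ran from 89.8 to 155. Nlgn1 had 57.6, 60.9 and 75.3 in CSS mice, and controls ran from 45.7 to 83.3. For all 9 members the 2 groups overlapped. The 95% interval was -0.18 to 0.36 for Nlgn3, -0.38 to 0.19 for Nlgn1, -0.23 to 0.34 for Nrxn2 and -0.35 to 0.20 for Nrxn3.

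The widest single difference was that of Lrrtm3 in CP, at -0.62 (95% interval -1.10 to -0.14, limma adjusted p = 0.999). Its CP signal was 14.7, 13.7, 18.9, 9.81 and 18.4 in 5 CSS mice, against 18.7, 18.7, 18.4 and 33.1 in 4 control mice. The groups overlap at 18.4 to 18.9, and 1 control mouse lies far above the rest. Lrrtm1 gave opposite signs in the 2 cortices, at -0.32 in MC and 0.38 in SS, and neither passed (limma adjusted p = 1.0 and 0.998). Lrrtm1 had a lowest, median and highest mouse of 19.6, 25.5 and 30.01 in MC of CSS mice, against 34.8, 34.4, 28.2 and 30.02 in controls. In SS it had 27.6, 30.5 and 34.9 in CSS mice, against 25.7, 21.6, 31.8 and 19.0 in controls.

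**Figure D5:**
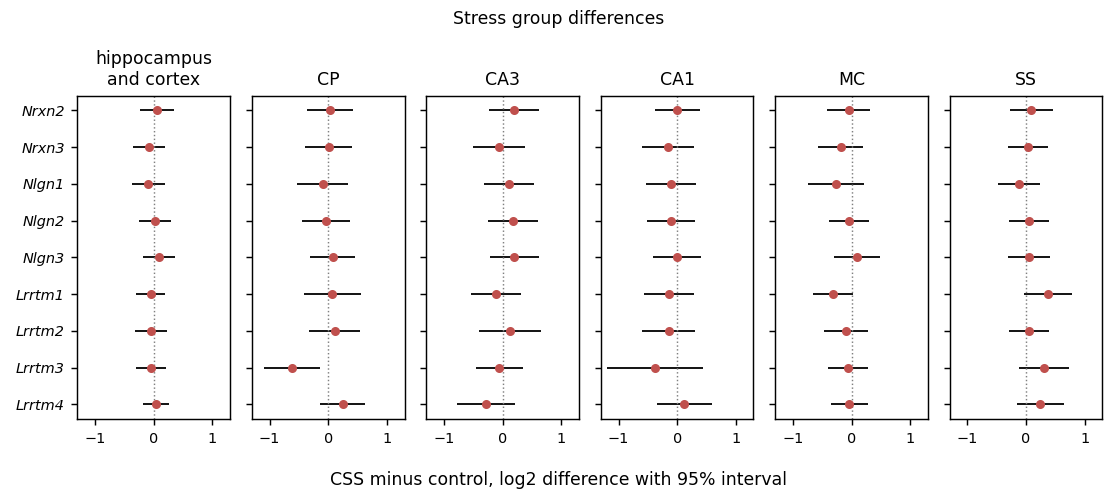
The CSS minus control log2 difference of each gene with its 95% interval, for hippocampus and cortex together and for each subregion. Every interval but 1 includes 0, and 0 members pass after adjustment; the interval wholly below 0 is that of Lrrtm3 in CP, -1.10 to -0.14.

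Whether the p16 difference itself changed with stress was tested on the per-mouse differences in hippocampus and cortex. The interaction was called for 0 members and 0% of all genes by limma (567 genes had an unadjusted p under 0.05, and edgeR called 0), and the members' values ran from -0.16 for Nlgn1 to 0.09 for Lrrtm3. For Nlgn3 it was 0.06, with a 95% interval of -0.22 to 0.34. The p16 difference of Nlgn3 was above 0 in 6 of 6 CSS mice and 4 of 4 control mice.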

How the data were processed

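The authors deposited 1 table of signal for 19962 genes and 1 negative probe in 90 AOIs. Per the submitters' processing notes the genome build was mm10, and the sources used here do not name the read-processing tools. The deposited signal is scaled so that every AOI has the same median over genes (22.067, seen in the values). Dividing by each AOI's step gave whole numbers for at least 99.984% of values per AOI (tolerance 0.01), and these recovered counts served only as an alternative and as depth. 22.7% of gene values were at or below the negative probe. 0 value columns were left unused.

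AOIs were averaged per mouse and compared on log2(signal + 1) with limma 3.58.1 (lmFit, eBayes with trend) in R 4.3.3, two-sided, with Benjamini-Hochberg adjustment over all 19962 genes, a threshold of 0.05 and 95% intervals. Fold changes are on the log2(signal + 1) scale and understate the change of low genes. The mouse was a block where both sides came from the same animals. That pairing comes from the mouse number in the labels. The deviations of paired p16 AOIs correlated at a median r of 0.07 over 41 pairs (13 above 0.1). Stress groups were compared over mice. Mice are separate animals, and nothing says which shared a cage or a slide. The negative probe limits precision for low genes, and recovered counts of PCR-amplified reads cover counting error only.

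Alternatives were a pseudocount of 10, genes above the median signal, quantile, 75th percentile and negative probe scaling, edgeR 4.0.16 on recovered counts, each mouse left out, the CA3 AOIs of mouse 1175 left out, no block and mouse as a random block (correlation estimated on every 10th gene). Matched p16 labels and a signal-over-background covariate were added after the data were seen. The members, the partner and marker lists and the tests were chosen with earlier results of these data known. All 9 members were named, together with the 3 genes most correlated with each and, from each partner list, at most 4 genes with the smallest p in a comparison. Scripts were tested on simulated data. Cadm3, on the SynCAM list, is not in the table. Sequences and coordinates are from RefSeq (GRCm38.p6): 9 of 9 members and 19822 of the 19962 names matched, and 6 of 9 members have promoter windows. No sequence is printed for the other members.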

Additional observations from a re-analysis of the deposited data

Results flagged for a closer look

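In 8 of the 162 combinations of gene and AOI group with 4 or more mice, 1 AOI lay far from the others, by the gap to its nearest neighbour over the range of the group (Dixon's ratio at the 95% level). Chance alone flags about 1 in 20 such groups, which is close to the share found. In p16 low CA1 AOIs of CSS mice, Nrxn2 was highest in mouse 1162 at 80.4 signal units, with the next mouse at 69. In p16 high CA1 AOIs of CSS mice the same animal was highest for Nlgn3 at 274.8, with the next at 196.9. Control mouse 1175 was lowest for Nrxn3 in p16 low CA3 AOIs at 98.6 (next 204.9) and for Lrrtm1 in p16 low CA1 AOIs at 76.8 (next 114.7). In p16 high CP AOIs of CSS mice, mouse 1170 was highest for Lrrtm1 at 47.8 (next 22.1) and for Lrrtm3 at 33.1 (next 15.8), and mouse 1163 was highest for Nlgn1 at 24.5 (next 14.2). Control mouse 1182 was highest for Lrrtm3 in p16 low SS AOIs at 35.9 (next 22.1).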

How the results depend on the processing

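The count of members called stayed within 1.5 times its value in 22 of 24 comparisons under every alternative that was run. The exceptions were p16 high against low. In hippocampus and cortex the 1 call (Nlgn3) became 0 under quantile normalization, 75th percentile scaling, mouse as a random block (limma adjusted p = 0.232), the signal-over-background covariate (0.128), and without the CA3 AOIs of mouse 1175 (0.0512), and ranged from 0 to 1 when each mouse was left out. In CA3 alone the 0 calls became 1 (Nlgn3) under negative probe scaling, and ranged from 0 to 1 when each mouse was left out (1 without mouse 1152, limma adjusted p = 0.0154). Without the replicate block of mouse, members called were 0 for p16 in hippocampus and cortex (Nlgn3 limma adjusted p = 0.886), 5 for CA3 against CA1 (Nlgn2 lost, 0.0972) and 6 for CA3 against MC (Nrxn2 lost, 0.154).

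A sign opposite to the reported one, with a call on at least 1 side, was found for Nrxn2 and Lrrtm2 between hippocampus and cortex. Nrxn2 was -0.38 for CA3 against MC and -0.22 for CA3 against SS under quantile normalization, and for CA1 against SS it was -0.74 under quantile normalization, -0.41 under 75th percentile scaling and -0.18 with edgeR. Lrrtm2 was -0.25 for CA1 against MC under 75th percentile scaling. Negative probe scaling instead gave calls in the reported direction for Nrxn2 in CA1 against SS (0.30). It did so too for Lrrtm2 in CA1 against MC (0.49) and SS (0.48). The cause was not tested. The median of all genes moved to -0.46 for CA1 against MC under 75th percentile scaling and to 0.26 under negative probe scaling. Genes called higher were then 3311 of 15279 and 8951 of 9256 called, against 6514 of 9494 as deposited and 2517 of 4790 after quantile normalization. Lrrtm1 kept a difference from that median of 1.37 to 1.99. Genes called by p16 in hippocampus and cortex (77) were 0 under quantile and 75th percentile scaling, 1288 under negative probe scaling and 151 with edgeR. Lrrtm3, Lrrtm4 and, in CP, Nlgn1 lie near the negative probe, which limits what their differences can show. The same limit holds for Lrrtm1 in CP, MC and SS, at 1.56, 1.71 and 1.79 times the negative probe. It holds too for Lrrtm2 outside CA1, at 1.49 times in CP to 2.01 times in SS.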
